A study of Caenorhabditis elegans with 27 samples.

Results

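The siRNAs of muscle sarcomere genes were examined in *pup* mutants of *C. elegans*. The genes were taken by their WBcel235 symbols and are *unc-54*, *myo-1*, *myo-2*, *myo-3*, *unc-15*, *unc-22*, *unc-52*, *unc-89*, *ttn-1* and *lev-11*, 10 protein-coding genes in all. Counts for 8 of the 10 were used here, of 10062 genes with siRNA counts, and *myo-1* and *unc-15* are not analysed here. Of the 8, *lev-11*, *unc-22* and *unc-54* passed the filter on low counts and were tested together with 9645 sRNAs of all classes, 7184 of them siRNAs. The other 5 did not pass and are described by their counts.

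The sarcomere is the contractile unit of muscle, in which thick filaments of myosin and paramyosin slide past thin filaments of actin and tropomyosin. Giant proteins of the titin and obscurin families hold the filaments in register, and basement membrane proteins such as perlecan anchor them to the outside of the cell. Endogenous siRNAs of the worm are short RNAs antisense to mRNAs, made for the most part by RNA-dependent RNA polymerases and bound by Argonaute proteins that silence or protect their targets. Poly(U) polymerases (PUPs) add uridines to the 3′ ends of RNAs, and PUP-1, also called CDE-1 or CID-1, is known for uridylating siRNAs.

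Small RNA was sequenced from whole hermaphrodites on day 1 of adulthood, grown at 22°C. The mutants were *pup-1(tm1021)*, *pup-2(tm4344)*, *pup-3(tm5089)*, *pup-4(om141)*, the double mutant *pup-1/-2(om129)*, a triple mutant that joins *pup-1/-2(om129)* with *pup-3(tm5089)*, and a quadruple mutant that adds *pup-4(om141)* to the triple, with 3 libraries each. The control was wild type (N2), with 6 libraries. Mutations are written (0) from here on. According to the study's methods, strains carrying a *pup-1* or *pup-2* allele were kept over a *qC1* balancer marked with *myo-2::gfp*, and the animals collected were homozygous offspring of homozygous mothers. The *pup-3(0)*, *pup-4(0)* and wild-type strains had no balancer. The study describes its replicates of each genotype as independent biological replicates, without saying whether they were run in 1 batch. For its filter on U-tails it set 3 wild-type replicates against 3 of a mutant that were run in parallel, without naming them. All 6 wild-type libraries served as the control here except where stated. Each value is a sum over tissues, in which fewer cells of a type and fewer siRNAs per cell cannot be told apart.

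Library totals ran from 972048 to 17562388 counts, with a median of 6692414. Replicate 1 of *pup-1(0)*, the triple mutant, *pup-3(0)*, *pup-2(0)* and wild type held under 2100000 counts each, and 9 libraries held 10000000 or more: 1 of *pup-3(0)*, the 3 of *pup-4(0)*, the 3 of the quadruple mutant, and replicates 5 and 6 of wild type. Levels are given as CPM, the counts of an sRNA relative to the scaled total of its library. A level of 3 counts, taken as the floor of a library, amounts to 3.09 CPM at the lowest total and to 0.171 CPM at the highest. The siRNAs of *pup-1* itself, listed as *cid-1*, lay between 1059 and 1171 CPM in *pup-1(0)* and between 954 and 1559 CPM in wild type. As the table gives 1 sum per gene, these siRNAs do not check the deletion.

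Most of the sarcomere siRNA counts came from 2 genes, *unc-22* and *lev-11*, in shares that differed among genotypes. Over the 27 libraries, which weight the deep ones more, *unc-22* had 11909 counts, or 65.8% of the sarcomere counts, and *lev-11* had 5050, or 27.9%. The *lev-11* share was 10.2% in *pup-1(0)*, 108 of 1059 counts, against 36.8% in wild type, 1664 of 4518 counts. In *pup-1(0)* *unc-54* had 6 counts, fewer than *ttn-1* with 15 and *unc-89* with 10. Over all libraries the major myosin heavy chain gene of body wall muscle, *unc-54*, had 877 counts. The titin gene *ttn-1* had 132, the perlecan gene *unc-52* had 89 and the obscurin gene *unc-89* had 38. The pharyngeal myosin gene *myo-2* had 7 counts, and *myo-3*, which encodes a second myosin heavy chain of body wall muscle, had 1. Myosin heavy chain genes are paralogs, and how reads matching several genes were counted is not given in the sources used here, so the division of counts among them is uncertain.

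Per kilobase of coding sequence the order was different. The length used joins the coding segments of all isoforms. For *lev-11* it is 1677 nt, against 852 nt in its longest coding sequence, so its levels per kb are lower than on that sequence. For *unc-22* the 2 lengths are 22023 and 21474 nt, and for *unc-54* both are 5889 nt. In wild type *lev-11* had 20.8 ± 9.19 CPM per kb (SD, n = 6), *unc-22* had 2.64 ± 0.647 and *unc-54* had 0.695 ± 0.826. The wild-type libraries of *lev-11*, from 6.73 to 33.2 CPM per kb, lay above all those of *unc-22*, from 1.7 to 3.55, whereas the libraries of *unc-54*, from 0.12 to 2.24, overlapped those of *unc-22*. Next were *ttn-1* at 0.0213 ± 0.0166 CPM per kb and *unc-52* at 0.0187 ± 0.0279, which did not differ beyond their spread, then *myo-2* at 0.00424 ± 0.0104 and *unc-89* at 0.00303 ± 0.00509, which did not either, and *myo-3* at 0. Across all 10062 siRNAs the median in wild type was 6.7 CPM per kb. A lower level per kb than that of *lev-11* was found for 63.4% of them, than that of *unc-22* for 40.8% and than that of *unc-54* for 26.8%. Scaled to the siRNA counts of a library instead of its total, the sarcomere genes together took 67.9 to 173 CPM, with a median of 124.

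The tropomyosin gene *lev-11* (WBGene00002978; chromosome I, 14621169 to 14631094 on the minus strand in WBcel235) encodes the coiled-coil protein that lies along the thin filament and gates the binding of myosin. Its 20 annotated coding transcripts cover 1.677 kb of coding sequence, none of which lies in an exon of the noncoding RNA annotated on the opposite strand. Its siRNAs were lower in each of the 4 strains that lack *pup-1*, by 3.25-fold to 5.53-fold against wild type, and close to the wild-type mean in the other 3 single mutants. The 3 *pup-1(0)* libraries had 6.82, 5.72 and 6.73 CPM, the 3 *pup-1/-2(0)* libraries 11.6, 4.86 and 9.27 CPM, the triple mutant 10.7, 8.67 and 12 CPM and the quadruple mutant 10.1, 11.9 and 10.5 CPM. In the strains with *pup-1* the levels were 31.9, 33.9 and 32.2 CPM in *pup-2(0)*, 37.4, 33.8 and 36.7 CPM in *pup-3(0)* and 35.6, 38.8 and 34.9 CPM in *pup-4(0)*, and the 6 wild-type libraries ran from 11.3 to 55.6 CPM with a median of 35.1. All 3 *pup-1(0)* libraries lay below every wild-type library, while those of the double, triple and quadruple mutants overlapped wild type at 1 library, wild-type replicate 1, which was the lowest at 11.3 CPM and had the lowest TMM scaling factor, 0.693. Of the 12 libraries lacking *pup-1* 3 lay above that replicate, and all 12 lay below the other 14 libraries with *pup-1*, which started at 27.4 CPM. Such a separation, lower and with that replicate left out, was found for 6.38% of the 9645 sRNAs tested. The replicate to leave out was chosen by its *lev-11* level, so this share is not a fair background for *lev-11*. With that replicate kept, the libraries lacking *pup-1* and those with it overlapped.

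Each mutant was compared with wild type in 1 edgeR quasi-likelihood fit over the 27 libraries. An sRNA was called differentially abundant (DA) when its p, adjusted by the Benjamini-Hochberg method, was under 0.05 and its log2 fold change was beyond 1 in either direction. For *lev-11* the mean fell to 6.42 ± 0.613 CPM in *pup-1(0)* (SD, n = 3), against 34.9 ± 15.4 CPM in wild type (SD, n = 6), a log2 fold change of -2.47 (SE 0.34, adjusted p = 2.97e-06 by edgeR). The log2 fold change was -2.03 in *pup-1/-2(0)* (SE 0.32, adjusted p = 2.34e-05 by edgeR), with a mean of 8.57 ± 3.42 CPM. In the triple mutant it was -1.76 (SE 0.32, adjusted p = 0.000142 by edgeR), with 10.5 ± 1.68 CPM, and in the quadruple mutant -1.70 (SE 0.30, adjusted p = 9.77e-05 by edgeR), with 10.8 ± 0.971 CPM. These 4 calls held in each of the 14 alternatives run for them and with each of the 27 libraries left out in turn. Their size depended on the wild-type libraries used: against replicates 1 to 3 alone the log2 fold changes were -1.88, -1.45, -1.17 and -1.12 in the order above, and against replicates 4 to 6 alone they were -3.01, -2.46, -2.18 and -2.20.

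In the other 3 mutants the siRNAs of *lev-11* were not called. The means were 32.7 ± 1.12 CPM in *pup-2(0)*, 35.9 ± 1.91 CPM in *pup-3(0)* and 36.5 ± 2.05 CPM in *pup-4(0)* (SD, n = 3 each), within the wild-type range. The log2 fold changes were -0.11 in *pup-2(0)* (within 2 SE, -0.68 to 0.46), 0.02 in *pup-3(0)* (-0.56 to 0.60) and 0.04 in *pup-4(0)* (-0.51 to 0.60), with adjusted p values of 0.963, 0.996 and 1 from edgeR. The sign of these 3 values changed under some alternatives.

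The loss of *pup-1* was also compared over all strains, as the mean of the 4 genotypes lacking it minus the mean of the 4 that have it. The *lev-11* siRNAs were lower by a log2 fold change of -1.98 (SE 0.17, adjusted p = 5.91e-10 by edgeR), with medians of 9.69 CPM over the 12 libraries lacking *pup-1* and 34.9 CPM over the 15 with it. Lower calls in this comparison took 13.9% of all sRNAs tested, 1339 in number, and 466 of the tested sRNAs had a lower log2 fold change than *lev-11*. Between single mutants, *pup-1(0)* was below *pup-2(0)* by a log2 difference of -2.35 (SE 0.36, adjusted p = 1.91e-05 by edgeR), and 12.3% of all sRNAs were called lower there. Both strains had been kept over the same balancer. The double mutant was below *pup-2(0)* by -1.92 (SE 0.35, adjusted p = 0.000158 by edgeR), with 11.7% of all sRNAs called lower. The further steps were not called: the log2 difference was 0.43 for *pup-1/-2(0)* minus *pup-1(0)* (within 2 SE, -0.28 to 1.15), 0.28 for the triple minus the double mutant (-0.42 to 0.98) and 0.05 for the quadruple minus the triple mutant (-0.63 to 0.74). In these 3 steps 4.12%, 0.487% and 0.612% of all sRNAs were called in either direction.

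**Figure D1:**
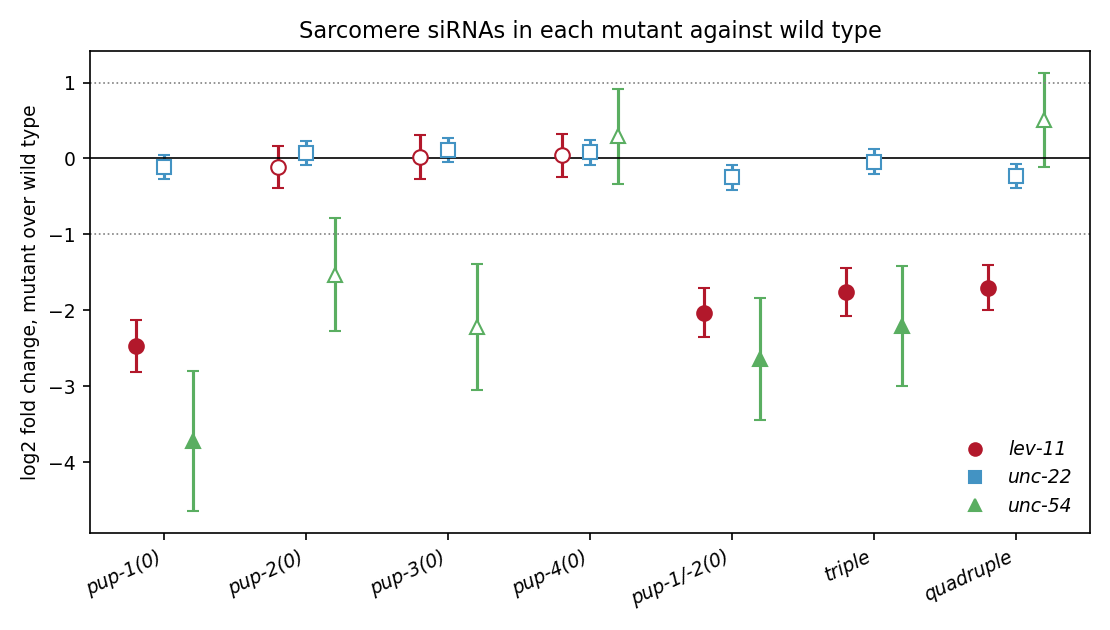
Log2 fold change of each mutant over wild type (points) with its SE (bars) for the 3 tested sarcomere genes; filled symbols were called DA, open symbols were not, and dotted lines mark a log2 fold change of 1 in either direction. The filled *lev-11* circles lie between -2.47 and -1.70 in the 4 strains lacking *pup-1*, the *unc-22* squares lie between -0.25 and 0.11, and the *unc-54* triangles have the longest bars.

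Of the 3 tested sarcomere genes, 2 were called lower in *pup-1(0)*, *lev-11* and *unc-54*, where 13.5% of all tested sRNAs were called lower. The same 2 were called lower in *pup-1/-2(0)*, where the share over all sRNAs was 12.5%, and in the triple mutant, where it was 11.9%. In the quadruple mutant *lev-11* alone was called lower, against 12.9% of all sRNAs. None of the 3 was called by edgeR in the other single mutants, although *unc-54* had unadjusted p values of 0.0498 in *pup-2(0)* and 0.0137 in *pup-3(0)*. Of all sRNAs 0.187% were called lower and 0.332% higher in *pup-2(0)*, 0.145% lower and 0.259% higher in *pup-3(0)*, and 0.0518% lower and 0% higher in *pup-4(0)*. No sarcomere gene was called higher in a mutant against wild type. With 3 genes these counts cannot be read as a share of a pathway.

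Twitchin, the product of *unc-22* (WBGene00006759; chromosome IV, 11972697 to 12011007 on the minus strand), is a giant kinase of the thick filament whose loss makes the body wall twitch. Its siRNAs were the most abundant by count and differed little among genotypes. The *pup-1(0)* libraries had 54.5, 56.4 and 52.2 CPM, the *pup-1/-2(0)* libraries 55.0, 44.1 and 48.4 CPM, the triple mutant 52.3, 60.8 and 57.2 CPM and the quadruple mutant 43.6, 54 and 52.3 CPM. Levels were 59.6, 60.8 and 63.6 CPM in *pup-2(0)*, 47.4, 63.5 and 75.6 CPM in *pup-3(0)* and 64.5, 59.1 and 61.4 CPM in *pup-4(0)*, and wild type ran from 37.4 to 78.2 CPM with a median of 57.1. Every mutant library lay inside the wild-type range, which was again bounded below by wild-type replicate 1.

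The genotype means of *unc-22* ran from 49.2 ± 5.45 CPM in *pup-1/-2(0)* to 62.2 ± 14.2 CPM in *pup-3(0)* (SD, n = 3 each), against 58.2 ± 14.2 CPM in wild type (SD, n = 6). None of the 7 comparisons with wild type gave a call under any alternative run, with log2 fold changes from -0.25 to 0.11 and an SE of 0.16 in each. The widest interval below 0, for *pup-1/-2(0)*, ran from -0.58 to 0.08 within 2 SE. Averaged over the strains lacking *pup-1*, *unc-22* had a log2 fold change of -0.22 against those with it (SE 0.09, adjusted p = 0.0479 by edgeR), which passed the threshold on p and not that on fold. In the coding sequence of *unc-22*, 123 nt lie in exons of the noncoding RNA *ZK617.19* on the opposite strand, and sense reads of that RNA would count as *unc-22* siRNAs. The siRNAs whose genotype means were most like those of *unc-22* were those of *blos-4* (Pearson r = 0.975 on log2 CPM over 8 genotypes), *cisd-3.2* (r = 0.963) and *Y92H12BR.7* (r = 0.959), out of 7183 siRNAs compared. The points are means of 3 or 6 libraries that share their depth and scaling with all other sRNAs. These are the 3 highest of 7183 values, each over 8 points, for a gene whose means differed little. They describe likeness and do not show shared regulation.

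The *unc-54* siRNAs (WBGene00006789; chromosome I, 14855901 to 14863482 on the minus strand) were rare and were highest in deeply sequenced libraries. The gene encodes the myosin motor that makes up most of the thick filament in body wall muscle. The 3 *pup-1(0)* libraries had 0, 0.163 and 0.543 CPM, from 0, 1 and 5 counts, the *pup-1/-2(0)* libraries had 0.331, 0.211 and 1.52 CPM, and the triple mutant had 0, 1.42 and 0.913 CPM. In the quadruple mutant the levels were 4.97, 7.51 and 6.59 CPM, in *pup-4(0)* 3.75, 6.77 and 5.93 CPM, in *pup-2(0)* 1.04, 1.41 and 1.97 CPM and in *pup-3(0)* 1.25, 0.947 and 0.848 CPM. Wild type ran from 0.705 to 13.2 CPM with a median of 1.66, and its replicates 5 and 6 had 13.2 and 6.06 CPM while the other 4 stayed at 1.76 CPM or below. Every *pup-1(0)* library lay below every wild-type library, as was the case for 12.1% of all sRNAs tested. The lowest wild-type level, 0.705 CPM in replicate 1, rested on 1 count, under the floor of 3 counts. This separation was therefore not beyond counting error. The other mutants overlapped wild type.

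Against all 6 wild-type libraries, the log2 fold change of *unc-54* was -3.72 in *pup-1(0)* (SE 0.92, adjusted p = 0.0025 by edgeR), with 0.235 ± 0.279 CPM (SD, n = 3) against 4.09 ± 4.86 CPM (SD, n = 6). It was -2.64 in *pup-1/-2(0)* (SE 0.80, adjusted p = 0.0119 by edgeR) and -2.21 in the triple mutant (SE 0.79, adjusted p = 0.0339 by edgeR). The quadruple mutant, which also lacks *pup-1*, was at 6.36 ± 1.29 CPM, with a log2 fold change of 0.51 (SE 0.62, adjusted p = 0.57 by edgeR). With the replicate number as a block it was called higher, at 2.37 (adjusted p = 0.00244 by edgeR), in a fit where wild-type replicates 4 to 6 had no partner in any mutant. Its log2 difference from the triple mutant was 2.72 (SE 0.85, adjusted p = 0.154 by edgeR), and all 3 quadruple libraries lay above all 3 triple libraries, as for 21% of sRNAs tested. Averaged over the strains lacking *pup-1* the log2 fold change was -1.15 (SE 0.44, adjusted p = 0.0306 by edgeR). With *lev-11* this made 2 of the 3 sarcomere genes lower, against 13.9% of all sRNAs.

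Library depth went with the *unc-54* level. Of the 9 libraries with 10000000 counts or more, 8 had over 2 CPM, from 3.75 to 13.2 CPM, and the ninth, a *pup-3(0)* library, had 0.947 CPM, while the 18 libraries with less ran from 0 to 1.97 CPM. All libraries of *pup-4(0)* and the quadruple mutant were in the deep group and all of *pup-1(0)*, the double mutant, the triple mutant and *pup-2(0)* in the shallow one, so depth and genotype cannot be told apart for these strains. Libraries under 10000000 counts alone gave log2 fold changes of -2.09 in *pup-1(0)*, -0.96 in *pup-1/-2(0)* and -0.61 in the triple mutant (adjusted p = 0.112, 0.472 and 0.661 by edgeR). Against wild-type replicates 1 to 3 alone the *pup-1(0)* value was -2.02 (adjusted p = 0.0504 by edgeR) and the quadruple mutant was called higher at 2.21 (adjusted p = 0.00862 by edgeR). Against replicates 4 to 6 alone *pup-2(0)* and *pup-3(0)* were called lower at -2.33 and -3.02. Without wild-type replicate 5 the value in *pup-1(0)* was -2.91, still called, and that in the triple mutant was -1.41 (adjusted p = 0.124 by edgeR). The triple mutant's call was also lost without wild-type replicate 6 or any of its own 3 replicates, that of *pup-1/-2(0)* without its replicate 1 or 2, and that of the average over strains without any of 6 libraries, wild-type replicate 5 among them at -0.95. No batch of sequencing or library preparation is named in the labels.

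**Figure D2:**
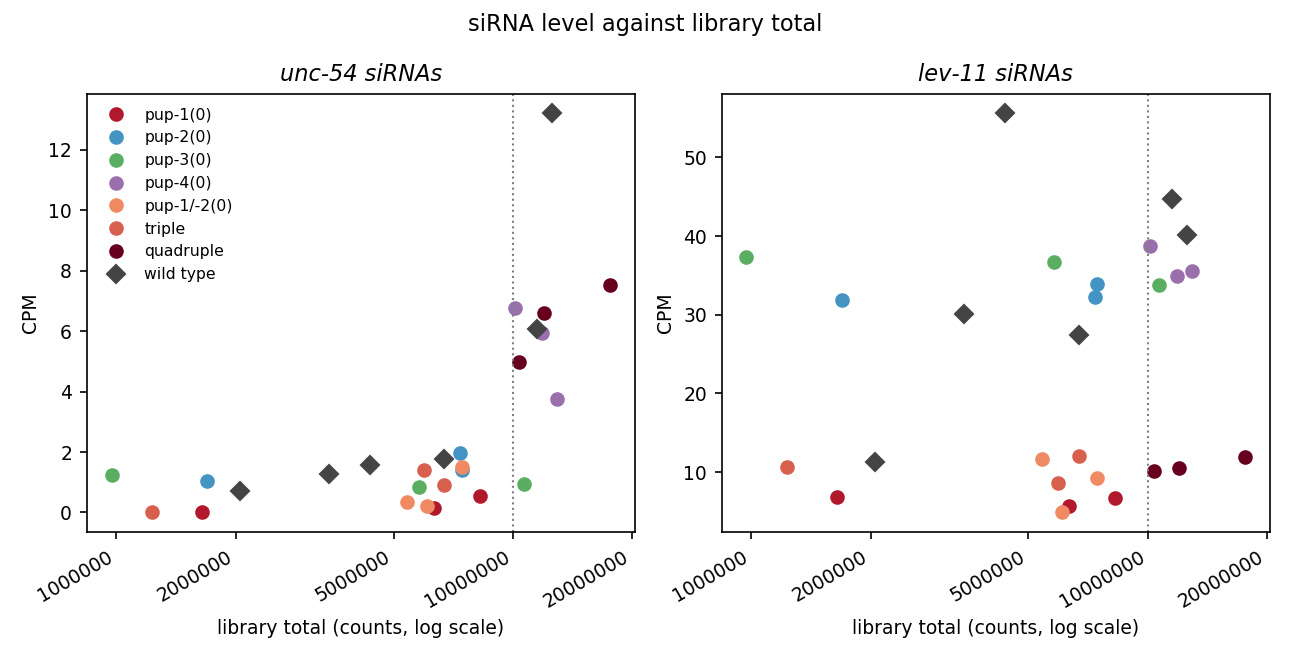
Level in CPM (linear axis) of the *unc-54* and *lev-11* siRNAs in each library against the library total in counts (log axis), with mutants as circles and wild type as diamonds; the dotted line marks 10000000 counts. Right of the line *unc-54* lies between 0.947 and 13.2 CPM and left of it between 0 and 1.97 CPM, whereas *lev-11* libraries lacking *pup-1* stay at 12 CPM or below on both sides.

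For *lev-11* each call held within the depth class of the strain's own libraries, and no strain lacking *pup-1* had libraries in both classes. With libraries under 10000000 counts alone its log2 fold change was -2.30 in *pup-1(0)*, -1.87 in *pup-1/-2(0)* and -1.59 in the triple mutant, and with libraries of 10000000 counts or more alone it was -2.01 in the quadruple mutant. All 4 values were called by edgeR, with adjusted p of 0.000491, 0.00234, 0.00747 and 2.5e-07.

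The 5 other sarcomere genes had too few counts to pass the filter. *ttn-1* (WBGene00006436; chromosome V, 6120909 to 6202632), which encodes a titin-like protein that spans part of the sarcomere, had 132 counts over the 27 libraries and at most 12 in any of them. Its means lay between 0.386 ± 0.265 CPM in the quadruple mutant and 0.834 ± 0.709 CPM in *pup-2(0)* (SD, n = 3 each), against 1.18 ± 0.921 CPM in wild type (SD, n = 6), and all mutants overlapped wild type. *unc-89* (WBGene00006820; chromosome I, 4035702 to 4090885), the gene of an obscurin-like protein at the M-line, had at most 6 counts in a library. Its highest means were 0.547 ± 0.347 CPM in *pup-1/-2(0)* and 0.435 ± 0.377 CPM in *pup-1(0)*, against 0.0739 ± 0.124 CPM in wild type, and libraries of both overlapped wild type.

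Perlecan, a basement membrane proteoglycan under the body wall muscle, is encoded by *unc-52* (WBGene00006787; chromosome II, 14647321 to 14684456). The quadruple mutant had 6, 19 and 14 of its siRNA counts, or 0.804 ± 0.262 CPM (SD, n = 3), against 0.244 ± 0.363 CPM in wild type (SD, n = 6). The triple mutant had the same mean with a wider spread, 0.804 ± 0.599 CPM, and the lowest mean was 0.0552 ± 0.0956 CPM in *pup-1/-2(0)*, from 1 count. These libraries overlapped those of wild type, which reached 0.95 CPM, and 8 of the 27 libraries were above the floor of 3 counts.

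The muscle myosin heavy chain genes *myo-2* and *myo-3* had next to no siRNA counts. *myo-2* (WBGene00003514; chromosome X, 12468061 to 12475348), expressed in the pharynx, had at most 2 counts in a library and 0 in 22 of the 27, and no library was over the floor. Counts were as low in the strains kept over the *myo-2::gfp* balancer: *pup-1(0)*, *pup-1/-2(0)* and the triple mutant had 0 counts, *pup-2(0)* had 1 and the quadruple mutant had 2, against 2 in wild type. *myo-3* (WBGene00003515; chromosome V, 12226817 to 12234343), a body wall muscle gene, had a single count, in a quadruple mutant library. At these depths a count of 0 allows up to 3 counts, so neither gene can be said to lack siRNAs. With no filter on low counts, none of the 65 values of the 5 genes over 13 comparisons was called by edgeR, 2 had an unadjusted p under 0.05 and the lowest adjusted p was 0.178.

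**Figure D3:**
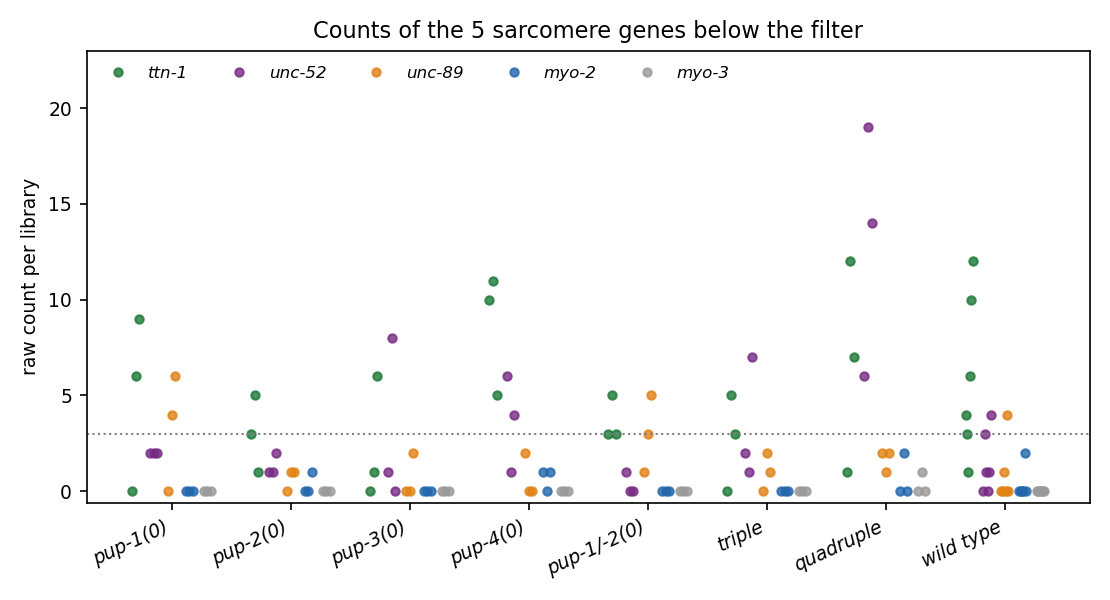
Raw counts per library (points) of the 5 sarcomere genes below the filter in each genotype; the dotted line marks the floor of 3 counts. *ttn-1* reaches 12 counts and *unc-52* 19, *unc-89* stays at 6 or below, and *myo-2* and *myo-3* stay at 2 or below.

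Other muscle genes were taken from a list of 62 symbols, of which 61 were in the annotation, 33 had siRNA counts and 19 were tested. The list is not confined to muscle genes, as it holds the nonmuscle myosin gene *nmy-1*. Calls went in both directions. In *pup-1(0)* 5 of the 19 were called higher and 3 lower, where 7.44% and 13.5% of all sRNAs were, in *pup-1/-2(0)* 3 higher and 3 lower (8.65% and 12.5%), in the triple mutant 1 higher and 2 lower (5.73% and 11.9%) and in the quadruple mutant 0 higher, or 2 with the replicate block, and 1 lower (8.3% and 12.9%). None was called by edgeR in the remaining single mutants, where 2 or 3 of the 19 had an unadjusted p under 0.05. The list's median log2 fold changes were 0.07, 0.27, 0.03 and -0.10 in *pup-1(0)*, the double, the triple and the quadruple mutant, beside -0.26, -0.12, -0.20 and -0.13 over all sRNAs tested. The 5 higher calls in *pup-1(0)* fell to 1 without wild-type replicate 1, that of *nmy-1*. They fell to 3 without wild-type replicate 2 or 4 and to 2 without *pup-3(0)* replicate 1 or 3 or *pup-1/-2(0)* replicate 2 or 3. Of the 5, 3 had log2 fold changes of 1.03 to 1.08, next to the threshold.

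Among the regulators, *hnd-1*, which encodes a bHLH factor of muscle and gonad development, fell with the loss of *pup-1* as *lev-11* did, but at lower levels. Its siRNAs averaged 1.68 ± 0.708 CPM in *pup-1(0)*, 1.19 ± 1.26 CPM in *pup-1/-2(0)*, 1.97 ± 0.531 CPM in the triple and 1.20 ± 0.228 CPM in the quadruple mutant (SD, n = 3 each), against 9.41 ± 4.82 CPM in wild type (SD, n = 6). Some of these libraries lay near the floor of 3 counts, as the *pup-1/-2(0)* libraries had 0.422, 0.506 and 2.65 CPM. The log2 fold changes were -2.41, -2.96, -2.28 and -2.97 (adjusted p = 0.000475, 7.86e-05, 0.001 and 3.14e-05 by edgeR). Averaged over strains lacking *pup-1* it was -2.96 (SE 0.26, adjusted p = 1.06e-09 by edgeR). This comparison called 2 of the 19 higher, *dyb-1* and *nmy-1*, and 4 lower, *hnd-1*, *unc-68*, *zyx-1* and the actin gene *act-4*, beside 8.69% and 13.9% of all sRNAs. The *zyx-1* call in it was lost with 6 factors of unwanted variation, at -0.38 (adjusted p = 0.658 by edgeR).

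Of the genes of membrane and calcium handling, *unc-68*, the ryanodine receptor gene, fell in *pup-1(0)*, the double and the triple mutant, to 17.4 ± 4.58, 20.4 ± 4.15 and 11.8 ± 2.81 CPM (SD, n = 3 each), against 70.2 ± 38.8 CPM in wild type (SD, n = 6). Its log2 fold changes were -1.99, -1.80 and -2.55 (adjusted p = 0.000415, 0.000984 and 5.54e-05 by edgeR), and -0.73 in the quadruple mutant (adjusted p = 0.126 by edgeR). Against wild-type replicates 1 to 3 alone the value of *unc-68* in *pup-1/-2(0)* was -0.85, past the threshold on p and not that on fold. The dystrobrevin gene *dyb-1* rose in *pup-1(0)* and the double mutant, with 11.5 ± 1.22 and 15.1 ± 1.63 CPM against 4.61 ± 2.34 CPM in wild type and log2 fold changes of 1.28 and 1.65 (adjusted p = 0.00298 and 0.000217 by edgeR). The *dyb-1* call in *pup-1(0)* was lost against wild-type replicates 4 to 6 alone, at 0.92, without wild-type replicate 1, at 1.0, and with only the compared genotypes (adjusted p = 0.0667 by edgeR). *sca-1*, the gene of the sarcoplasmic reticulum calcium pump, rose in *pup-1(0)* by 1.03 (SE 0.14, adjusted p = 2.98e-06 by edgeR), next to the threshold on fold and below it without wild-type replicate 1, at 0.83.

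Dense bodies are the attachment sites of thin filaments. Of 8 of their genes tested, 1 was called higher and 1 lower in *pup-1(0)* and in *pup-1/-2(0)*, and 1 higher in the triple mutant, beside the shares of all sRNAs given above. *ketn-1*, a kettin-like giant protein gene, was the most variable: it averaged 47.8 ± 3.80 CPM in *pup-1(0)*, 7.24 ± 2.20 CPM in *pup-1/-2(0)* and 204 ± 77.9 CPM in the triple mutant (SD, n = 3 each), against 22.4 ± 9.95 CPM in wild type (SD, n = 6). Its log2 fold changes were thus 1.08, -1.64 and 3.18 in 3 strains that all lack *pup-1* (adjusted p = 0.0125, 0.00165 and 9.96e-08 by edgeR). The *ketn-1* value in *pup-1(0)* was 0.88 without wild-type replicate 1 and 0.77 with replicates 4 to 6 as the only wild type, neither of them called. The talin gene *tln-1* was called higher in *pup-1/-2(0)*, at 782 ± 277 CPM against 207 ± 164 CPM in wild type, with a log2 fold change of 1.92 (SE 0.57, adjusted p = 0.0118 by edgeR), and this call was lost without *pup-1/-2(0)* replicate 2 (1.80, adjusted p = 0.0514) and against wild-type replicates 4 to 6 alone (1.83, adjusted p = 0.0693). The zyxin gene *zyx-1* was called lower in *pup-1(0)* at -2.44 (SE 0.79, adjusted p = 0.0181 by edgeR), from 0.290 ± 0.333 CPM against 1.91 ± 1.24 CPM in wild type. Its *pup-1(0)* libraries had 0, 0.217 and 0.653 CPM, close to the floor of 3 counts. Without *pup-1(0)* replicate 1 or 3 the adjusted p from edgeR was 0.0555 or 0.112, and with replicates 1 to 3 as the only wild type 0.0713. It was 0.0728 with 6 factors of unwanted variation, 0.0835 with the replicate block, 0.0528 with only the compared genotypes and 0.0865 with libraries under 10000000 counts.

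The remaining genes of the list called against wild type were *nmy-1*, a nonmuscle myosin heavy chain gene, and *unc-94*, which encodes tropomodulin, the cap of the thin filament's pointed end. The *nmy-1* siRNAs averaged 81.3 ± 33.3 CPM in *pup-1(0)* and 72.6 ± 17.8 CPM in *pup-1/-2(0)* (SD, n = 3 each), against 24.4 ± 9.87 CPM in wild type (SD, n = 6), with log2 fold changes of 1.71 and 1.53 (adjusted p = 3.95e-05 and 0.000173 by edgeR). Those of *unc-94* were 38.4 ± 1.99 CPM in *pup-1(0)* against 18.3 ± 3.20 CPM in wild type, a log2 fold change of 1.05 (SE 0.18, adjusted p = 7.41e-05 by edgeR), which fell below the threshold on fold when wild-type replicate 1 was left out, at 0.85. The actin gene *act-4*, described because it was called only in comparisons other than those with wild type, had a log2 fold change of -1.12 averaged over the strains lacking *pup-1* (SE 0.23, adjusted p = 0.000246 by edgeR). Its siRNAs averaged 1.71 ± 0.132 CPM in *pup-1(0)*, 2.41 ± 1.38 CPM in *pup-1/-2(0)*, 2.25 ± 0.961 CPM in the triple and 2.02 ± 0.153 CPM in the quadruple mutant, against 6.14 ± 2.37 CPM in *pup-2(0)*, 3.95 ± 1.08 CPM in *pup-3(0)*, 5.39 ± 0.442 CPM in *pup-4(0)* (SD, n = 3 each) and 3.04 ± 1.33 CPM in wild type (SD, n = 6). Actin genes are close paralogs, so its counts are uncertain in the same way as those of the myosins. Tropomyosin siRNAs fell and tropomodulin siRNAs rose in the same *pup-1(0)* libraries, although both proteins belong to the thin filament.

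**Figure D4:**
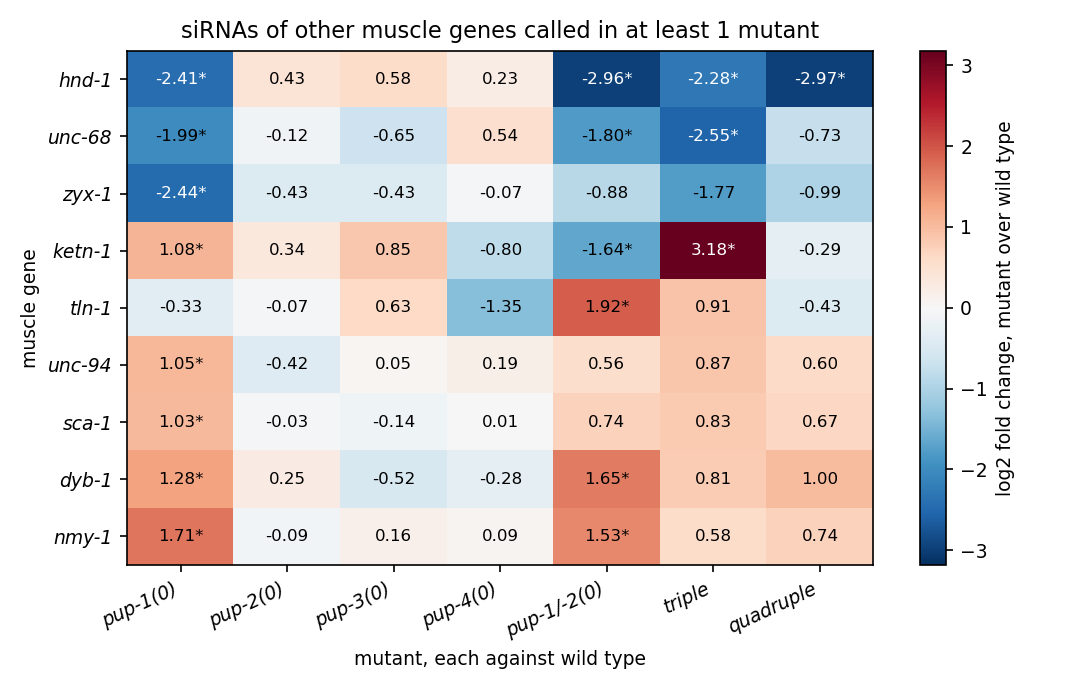
Log2 fold change of each mutant over wild type (colour and printed value) for the 9 genes of the wider muscle list called in at least 1 of the 7 comparisons; an asterisk marks a call. *hnd-1* is negative in the 4 strains lacking *pup-1*, from -2.97 to -2.28, and *ketn-1* runs from -1.64 in *pup-1/-2(0)* to 3.18 in the triple mutant.

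Genes typical of other tissues also had siRNA counts in these whole animals. Averaged over the strains lacking *pup-1*, where 8.69% of all sRNAs were called higher and 13.9% lower, 3 of 5 tested intestinal genes were called higher and none lower, 2 of 5 neuronal genes higher and 1 lower, 1 of 10 germline genes lower and none higher, and 1 of 3 hypodermal genes lower and none higher. Of the genes listed, 5 of 10 intestinal, 5 of 10 neuronal, 10 of 14 germline and 3 of 8 hypodermal genes were tested. Beside these, 2 of the 3 sarcomere genes were lower, *lev-11* and *unc-54*. The *unc-54* call held in 7 of 11 alternatives and in 21 of 27 fits with 1 library left out. Intestinal calls were not confined to strains lacking *pup-1*. Of the 5 genes, 1 was called higher in *pup-1(0)*, 4 in *pup-1/-2(0)*, 3 in the triple and 5 in the quadruple mutant, where 7.44%, 8.65%, 5.73% and 8.3% of all sRNAs were, and 2 were called higher in *pup-2(0)*, where 0.332% were. In *pup-1(0)* against *pup-2(0)* 3 of the 5 were called lower, with 12.3% of all sRNAs. These are siRNA levels and not transcripts, and their part in the values of the sarcomere genes was not tested.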

How the data were processed

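Small RNA was treated with RNA 5′ polyphosphatase before library construction, and 27 libraries of 8 genotypes were analysed. Per the study's methods, the authors used cutadapt (quality cutoff 20), retained reads of 15 to 26 nt, aligned them by HISAT2 and used smalldisco for counting. The authors deposited raw counts, 1 per sRNA and library. A siRNA count is the sum of reads antisense to a gene's coding sequence.

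Symbols, positions and coding lengths came from the Ensembl 115 annotation of WBcel235, not the authors' release, which matched 20147 of 20150 IDs. The software was edgeR 4.0.16, DESeq2 1.42.0 and limma 3.58.1 under R 4.3.3, and matplotlib 3.10.9 for plots. filterByExpr (minimum count 10, genotype as group) kept 9645 sRNAs. Totals were scaled by TMM, all libraries entered 1 robust quasi-likelihood fit on genotype, and p values of the 13 comparisons were adjusted by Benjamini-Hochberg over all tested sRNAs. The thresholds for DA are those of the study. Its factors of unwanted variation (k = 6) are not spelled out, so 6 factors in an implementation written for this work were an alternative. The others were DESeq2 and its size factors, total counts, minimum counts of 50 or 10 CPM in 3 libraries, no filter, siRNAs alone, a replicate block, subsets of wild type, the compared genotypes alone, 3 sets of libraries by depth chosen after seeing the data, and each library left out in turn.

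The rule for pairing a mutant with wild type by replicate number was that all 3 same-numbered pairs had deviations correlated above 0.1. Only the quadruple mutant met it (0.168 to 0.426), although 2 of its 3 libraries correlated better with another number. The main fit used no pairing for any mutant, the quadruple included, and the replicate block was an alternative only. CPM used TMM-scaled totals. Floors cover counting error only. The steps were tested on simulated data. All sarcomere genes are named, and of the wider muscle list those called DA in any comparison with wild type, at most 20. The lists of muscle, germline, neuronal, intestinal and hypodermal genes, and the sarcomere genes themselves, were chosen with earlier results of these data known.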

Additional observations from a re-analysis of the deposited data

Results flagged for a closer look

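In the 6 wild-type libraries, 2 sarcomere genes had a library far from the others by Dixon's criterion. Its rate of about 1 in 20 groups flagged by chance is for normally distributed values and does not hold for counts this low. The *myo-2* siRNAs were at 0.148 CPM in the highest library, from 2 counts, and at 0 in the other 5. With those 5 at 0, any count in the highest library would have been flagged. The *unc-52* siRNAs were at 0.95 CPM in the highest library, from 3 counts, and the gap to the next was 0.693 of the range. Both rest on counts at or under the floor.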

How the results depend on the processing

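The calls of lower *lev-11* siRNAs in the 4 strains lacking *pup-1* held under every alternative run, and *unc-22* was called under none. The counts of sarcomere genes moved through *unc-54* alone, and except where fewer libraries or genes entered by construction the cause was not tested. The count called lower was 1 in place of 2 with a minimum of 10 CPM, at which *unc-54* was not tested, and against wild-type replicates 1 to 3 alone, both in *pup-1(0)*, *pup-1/-2(0)*, the triple mutant and the average over strains. It was 1 with libraries under 10000000 counts alone in *pup-1(0)*, *pup-1/-2(0)* and the triple mutant, 1 with only the compared genotypes in *pup-1/-2(0)* and the triple mutant, 1 with 6 factors of unwanted variation in these 2 and in the average, 1 with total counts in the triple mutant and the average, and 1 without the 5 shallowest libraries in the triple mutant. With replicates 4 to 6 as the only wild type, 1 was called lower in place of 0 in *pup-2(0)* and *pup-3(0)*, and in *pup-3(0)* also with the deep libraries alone. Against replicates 1 to 3 the count called higher was 1 in the quadruple mutant, and 2 were lower in *pup-1(0)* against *pup-2(0)*. For the quadruple against the triple mutant 1 was called higher, in place of 0, with DESeq2, with either group of 3 wild-type replicates and with only the compared genotypes.

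The wider muscle list had 5 genes higher in *pup-1(0)*, but 2 with a minimum of 10 CPM, no filter, only the compared genotypes or no libraries under 2100000 counts, 3 with siRNAs alone and 1 against wild-type replicates 4 to 6, against which 5 were lower in *pup-1(0)*, 2 in *pup-3(0)* and 2 in the quadruple mutant. In the triple mutant 4 were higher with total counts, 3 with 6 factors and 2 against replicates 1 to 3, against which 1 was higher in *pup-4(0)* and 2 in the quadruple mutant. In the quadruple mutant 1 was higher with DESeq2 or its size factors, total counts, 6 factors, a minimum count of 50 or a minimum of 10 CPM, and 2 were lower without the libraries under 2100000 counts. The average over strains had 2 lower with either stricter filter.

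Log2 fold changes near 0 changed sign. For *lev-11* in *pup-2(0)* the value was 0.47 against wild-type replicates 1 to 3, 0.05 with libraries under 10000000 counts and 0.04 with 6 factors. In *pup-3(0)* it was -0.48 against replicates 4 to 6, -0.33 with deep libraries, -0.22 with total counts, -0.24 without the shallowest libraries, -0.03 with DESeq2, -0.02 with its size factors and -0.06 with no filter. In *pup-4(0)* it was -0.34 against replicates 4 to 6, -0.22 with deep libraries, -0.23 with 6 factors and -0.09 without the shallowest libraries. The quadruple minus the triple mutant gave -0.02 against replicates 4 to 6, -0.22 with 6 factors and -0.01 with siRNAs alone or without the shallowest libraries, and the triple minus the double mutant gave -0.0 with 6 factors. For *unc-54* the signs changed in *pup-2(0)*, to 0.17 against replicates 1 to 3 and 0.13 with libraries under 10000000 counts, in *pup-4(0)*, to -0.39 against replicates 4 to 6, -0.82 with deep libraries and -0.03 with 6 factors, and in the quadruple mutant, to -0.29 against replicates 4 to 6 and -0.64 with deep libraries. For *unc-22* they changed in *pup-2(0)*, to -0.02 against replicates 1 to 3, -0.1 without the shallowest libraries and -0.01 with no filter, in *pup-3(0)*, to -0.11 with total counts, in *pup-4(0)*, to -0.01 against replicates 1 to 3, in the triple mutant, to 0.18 with total counts, 0.02 against replicates 4 to 6 or with siRNAs alone and 0.0 with DESeq2 size factors, and in the quadruple mutant, to 0.03 with total counts and 0.02 with 6 factors.

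Leaving out each library in turn gave 1 to 2 sarcomere genes lower in *pup-1/-2(0)*, the triple mutant and the average over strains, and of the wider list 1 to 5 higher in *pup-1(0)*, 1 to 2 in the triple and 0 to 1 in the quadruple mutant. The log2 fold change of *lev-11* ran from -0.24 to 0.1 in *pup-3(0)*, from -0.09 to 0.25 in *pup-4(0)* and from -0.07 to 0.19 for the quadruple minus the triple mutant. That of *unc-22* ran from -0.12 to 0.12 in *pup-2(0)*, from -0.12 to 0.21 in *pup-3(0)* and from -0.13 to 0.07 in the triple mutant.

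Total counts as the only scaling moved the median log2 fold change of all tested sRNAs by -0.2 to 0.3, and lower calls then made up 39.6% of calls in the quadruple mutant and 49.1% in the triple mutant, beside 60.9% and 67.5% with TMM, and 66.7% in *pup-3(0)*, beside 35.9%. With 6 factors the share was 49.8% in the quadruple mutant and 17.6% in *pup-3(0)*, where DESeq2 size factors gave 46.9%.

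Under the rule of all 3 pairs above 0.1, replicate numbers were not taken to pair the libraries with wild type in 6 of the 7 mutants. Only wild-type replicates 1 to 3 entered this check, so it cannot tell whether libraries shared a run. In the quadruple mutant all 3 same-numbered pairs had deviations correlated above 0.1 (0.168 to 0.426), although only 1 of its 3 libraries correlated best with its own number. Over all mutants this was so for 6 and 7 of 21 pairs (range -0.177 to 0.426). With the replicate block, which leaves wild-type replicates 4 to 6 with no partner, 1 sarcomere gene was called higher in *pup-4(0)*, in the quadruple mutant and for the quadruple against the triple mutant. With this block 1 was called lower in *pup-1/-2(0)*, the triple mutant and the average, and 2 in *pup-1(0)* against *pup-2(0)*. The block gave 1 gene of the wider list higher in *pup-4(0)*, and 2 in the triple and in the quadruple mutant. In *pup-2(0)* it turned the sign for *lev-11* (0.47), *unc-54* (0.21) and *unc-22* (-0.0).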
